A study of Mus musculus with 12 samples.

Results

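The 35 genes described here are B lineage and plasma cell genes other than the immunoglobulin genes, named in a list, and their levels are given across 12 RNA-seq libraries. The libraries were labelled as type 1 conventional dendritic cells (cDC1) of the inguinal lymph node of mice. cDC1 are the dendritic cells known for taking up material from dying cells and presenting it to CD8 T cells. All 35 were found among the 53458 genes of the annotation, and 34 of them were among the 18095 genes with enough counts to be tested; only Tnfrsf17, the plasma cell receptor BCMA, was not. The labels mark each library by 2 attributes, a subcutaneous KPC tumor (KPC is known as a model of pancreatic cancer in mice) and an agonist of CD40, the receptor by which helper T cells license dendritic cells and B cells. The groups are NoTumor-NoCD40 (neither), NoTumor-CD40 (agonist, no tumor), Tumor-NoCD40 (tumor, no agonist) and Tumor-CD40 (both), with 3 libraries each, numbered 1 to 3. The labels give no strain, age, dose, time or sort gate, and no information on what the libraries without agonist received. Whether each library stands for its own animal is not stated, so p-values cover only the spread between these samples, which may be technical.

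B cells carry a receptor made of immunoglobulin and the signaling chains CD79A and CD79B, and the transcription factors EBF1 and PAX5 set up and hold their identity. In a lymph node, naive B cells gather in follicles through CXCR5, take survival signals through the BAFF receptor, and display CD22, CD23 (Fcer2a) and complement receptor CR2. Activated B cells can become plasma cells, which lose many of these surface proteins and turn over their secretory machinery to antibody. Several genes of the list are not exclusive to B cells: Cd180, Btk, Cd37, Cd38 and Tnfrsf13b are also known from other white blood cells.

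Levels per library are normalized CPM (counts scaled to a common total with edgeR's TMM factors), which serve to compare libraries. TPM, which also divides by transcript length, is used where genes are compared. Totals of the deposited expected counts ranged from 22855143 to 27163393 over the libraries. The cDC1 marker list of 10 genes, among them Xcr1 and Clec9a, summed to between 2304 and 11070 CPM over the 12 libraries. Libraries of a group correlated at 0.972 to 0.990 and libraries of different groups at 0.967 to 0.991 (Pearson's r of log2(CPM + 1) over genes). No library had values identical to another.

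The list as a whole was highest in the group with both tumor and agonist. Summed over the 35 genes, the level was 675, 665 and 689 CPM in NoTumor-NoCD40, 775, 618 and 544 in NoTumor-CD40, 666, 704 and 504 in Tumor-NoCD40, and 1761, 1504 and 3484 in Tumor-CD40. The first 3 groups overlapped in this sum, and all 3 Tumor-CD40 libraries lay above them. Cd180, Cd37 and Btk had the largest means in NoTumor-NoCD40 (169, 120 and 91.2 CPM) and weigh most in the sum there. In NoTumor-CD40 against NoTumor-NoCD40, 21 of the 34 genes tested had a positive log2 fold change and 13 a negative one. None of these was called, and the sum does not show such opposite shifts. For 22 of the 34 genes tested, every Tumor-CD40 library was above the other 9 libraries, which was so for 1.43% of all genes tested. Tumor-CD40 library 3 held the highest level of 27 of the 35 genes, Tumor-CD40 library 1 of 3, and other groups of 5. Because these are bulk libraries, a larger number of cells of a type and more RNA per cell cannot be told apart.

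**Figure D1:**
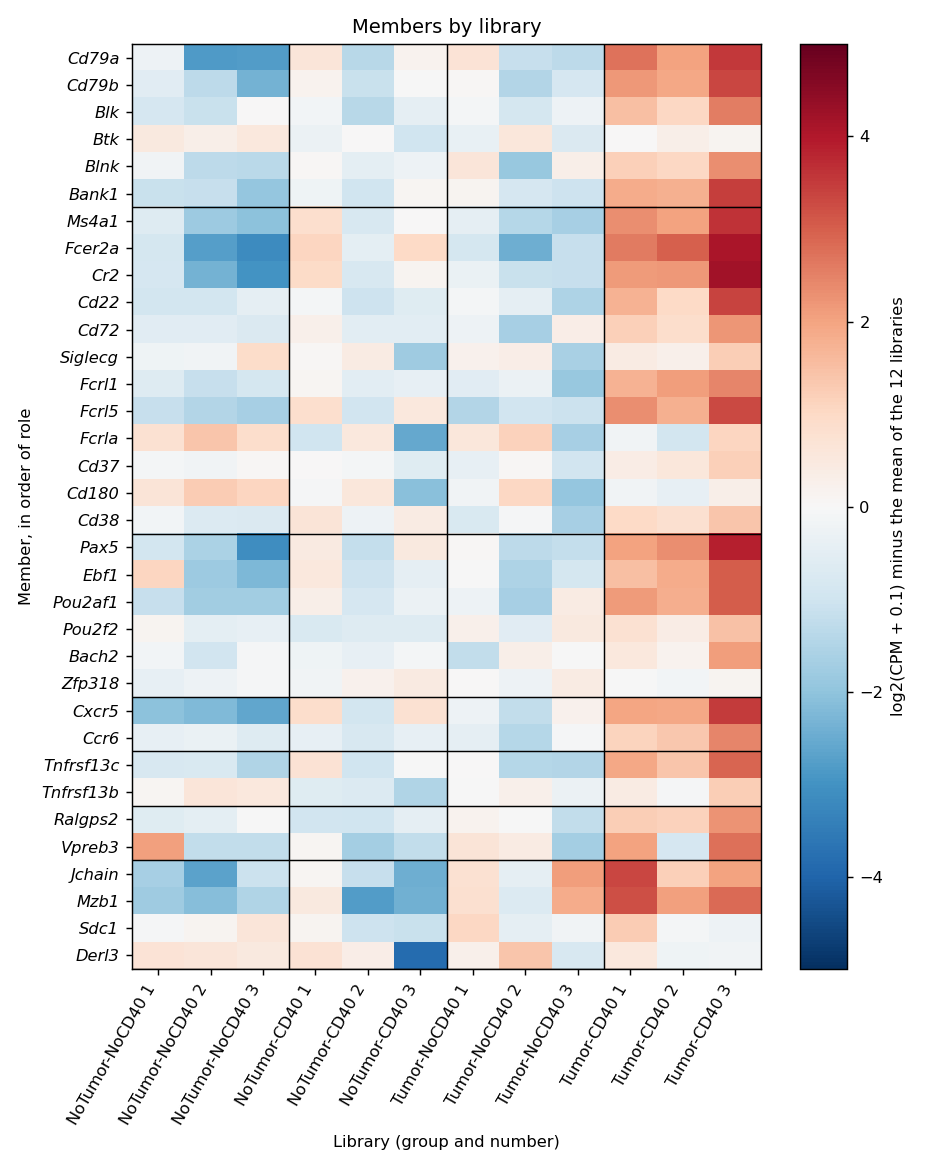
Level of the 34 genes tested in each of the 12 libraries, as log2(CPM + 0.1) minus the gene's mean over the 12 libraries (red above, blue below that mean); rows are ordered by role and black lines part the groups and the roles. The Tumor-CD40 columns are red for most B cell genes, most deeply in library 3, while Cd180, Btk, Fcrla and Derl3 have their highest group mean CPM in NoTumor-NoCD40.

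The first question is which of these genes differed with the CD40 agonist in mice with a tumor. With edgeR's quasi-likelihood test and Benjamini-Hochberg adjustment over all genes tested (adjusted p under 0.05), 16 of 34 genes rose in Tumor-CD40 against Tumor-NoCD40 and 0 fell, while 0.641% of all genes tested were called higher and 0.0442% lower. The 34 log2 fold changes ran from -0.49 to 4.74 with a median of 2.06, beside -0.02 over all genes tested. Levels did not overlap between the groups for 22 genes, all higher with the agonist, beside 6.5% of all genes tested that were higher and 5.41% that were lower. The count was 8 without Tumor-CD40 library 3 or without Tumor-NoCD40 library 1, and 10 without Tumor-NoCD40 library 3. In these fits 0.228%, 0.132% and 0.244% of all genes tested were called, beside 0.685% with all 12 libraries. The 8 called without Tumor-CD40 library 3 were Cd79b, Ms4a1, Pax5, Cr2, Fcer2a, Bank1, Fcrl1 and Fcrl5, all among the 16.

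Among the genes of the B cell receptor complex and its signaling, 3 of 6 rose. Cd79b (ENSMUSG00000040592, chr11:106311341-106314762 on GRCm38, minus strand), a signaling chain of the receptor, was at 13.6, 7.903 and 3.81 CPM in NoTumor-NoCD40, 22.5, 9.305 and 19.7 in NoTumor-CD40, 20.5, 7.19 and 11.2 in Tumor-NoCD40 and 90.3, 76.5 and 203 in Tumor-CD40. The Tumor-CD40 libraries were all above the rest, and Cd79b rose (log2 fold change 3.26, SE 0.49, edgeR adjusted p = 0.00980). Its partner Cd79a (ENSMUSG00000003379, chr7:24897381-24902197, plus strand) was at 21.3, 3.49 and 3.53 CPM in NoTumor-NoCD40, 39.1, 9.698 and 28.9 in NoTumor-CD40, 41.03, 11.3 and 10.1 in Tumor-NoCD40 and 166, 103 and 294 in Tumor-CD40. It too was highest in the 3 Tumor-CD40 libraries, but the log2 fold change of 3.19 had an adjusted p of 0.0541 in the same test and was not called. In TPM, where each of these genes rests almost wholly on a single transcript, Cd79a was at 58.5, 39.0 and 114 and Cd79b at 49.0, 43.6 and 119.5 in Tumor-CD40.

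Bank1, an adaptor of B cell receptor signaling, was at 3.83, 3.72 and 2.09 CPM in NoTumor-NoCD40, 7.11, 4.12 and 8.96 in NoTumor-CD40, 9.13, 4.67 and 3.996 in Tumor-NoCD40 and 30.9, 28.98 and 92.7 in Tumor-CD40. It was higher in every Tumor-CD40 library and rose (log2 fold change 3.12, SE 0.48, edgeR adjusted p = 0.00980); without Tumor-CD40 library 3 the log2 fold change was 2.36. Blk, a Src family kinase of B cells, was at 3.597, 2.92 and 6.6 CPM in NoTumor-NoCD40, 5.92, 2.43 and 4.64 in NoTumor-CD40, 6.07, 3.46 and 5.34 in Tumor-NoCD40 and 18.6, 13.2 and 37.97 in Tumor-CD40, and rose less (log2 fold change 2.24, SE 0.44, edgeR adjusted p = 0.0324). For Blk the groups did not overlap, and its call was lost when any of 5 of the 6 libraries compared was left out in turn (adjusted p from 0.0503 to 0.154). Blnk, the adaptor that links the receptor to phospholipase C, had a log2 fold change of 1.64 (adjusted p = 0.207, edgeR) with no overlap. Btk, the kinase mutated in X-linked agammaglobulinemia, stood at 0.23 (adjusted p = 0.877, edgeR) with overlapping groups, and at -0.0062 without Tumor-NoCD40 library 3.

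Of the 12 genes listed as surface proteins, among them Fcrla, whose protein is kept inside the cell, 7 rose. Fcer2a (ENSMUSG00000005540, chr8:3681737-3694175, minus strand), the low-affinity IgE receptor CD23 of follicular B cells, was at 12.2, 3.22 and 2.42 CPM in NoTumor-NoCD40, 47.7, 15.9 and 45.2 in NoTumor-CD40, 12.1, 4.03 and 9.99 in Tumor-NoCD40 and 138, 177 and 381 in Tumor-CD40. It rose the most of the 34 genes (log2 fold change 4.74, SE 0.60, edgeR adjusted p = 0.00350) and was past the threshold under all 15 settings compared. Cr2, the complement receptor CD21, was at 5.51, 1.84 and 1.15 CPM in NoTumor-NoCD40, 19, 5.54 and 10.8 in NoTumor-CD40, 7.73, 4.44 and 4.36 in Tumor-NoCD40 and 42.8, 45 and 184 in Tumor-CD40. It rose (log2 fold change 4.05, SE 0.64, edgeR adjusted p = 0.0115), with a log2 fold change of 3.01 without Tumor-CD40 library 3. That library stood well above the other Tumor-CD40 libraries, which were close to each other.

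Ms4a1, which encodes CD20, was at 19.1, 8.29 and 7.09 CPM in NoTumor-NoCD40, 53.2, 17.1 and 29.98 in NoTumor-CD40, 21.6, 10.9 and 9.26 in Tumor-NoCD40 and 150.4, 120.4 and 362 in Tumor-CD40. The Tumor-CD40 libraries were again the highest of the 12, and Ms4a1 rose (log2 fold change 3.93, SE 0.54, edgeR adjusted p = 0.00560; log2 fold change 3.30 without Tumor-CD40 library 3). Fcrl1, an Fc receptor-like protein of B cells, lies beside Fcrl5 on the plus strand of chromosome 3 (chr3:87376387-87402934 and chr3:87435773-87500678). Fcrl1 was at 7.04, 4.87 and 6.03 CPM in NoTumor-NoCD40, 11.8, 7.58 and 8.29 in NoTumor-CD40, 7.48, 8.997 and 2.87 in Tumor-NoCD40 and 37.5, 46.9 and 61.1 in Tumor-CD40. It had the smallest adjusted p of the list (log2 fold change 2.92, SE 0.34, edgeR adjusted p = 0.00174) and also passed under all 15 settings. Fcrl5, of the same family, was low, at 0.842, 0.652 and 0.574 CPM in NoTumor-NoCD40, 3.66, 0.982 and 2.89 in NoTumor-CD40, 0.661, 0.979 and 0.908 in Tumor-NoCD40 and 10.3, 7.02 and 20.9 in Tumor-CD40. Its groups did not overlap, and it rose (log2 fold change 3.90, SE 0.56, edgeR adjusted p = 0.00625).

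Cd22, an inhibitory receptor that binds sialic acid, was at 8.72, 8.75 and 12.4 CPM in NoTumor-NoCD40, 15.6, 8.09 and 10.9 in NoTumor-CD40, 15.9, 12.3 and 5.703 in Tumor-NoCD40 and 56.5, 33.7 and 174 in Tumor-CD40. Its rise (log2 fold change 2.98, SE 0.53, edgeR adjusted p = 0.0192) leaned on Tumor-CD40 library 3, without which the log2 fold change was 2.02 and the adjusted p 0.0546 (edgeR). Cd38, an ectoenzyme of B cells and other leukocytes, was at 17.8, 12.3 and 11.9 CPM in NoTumor-NoCD40, 31.2, 16.6 and 26.6 in NoTumor-CD40, 11.5, 18.9 and 6.25 in Tumor-NoCD40 and 39.7, 34.97 and 51.8 in Tumor-CD40, and rose (log2 fold change 1.79, SE 0.34, edgeR adjusted p = 0.0301). Cd37, a tetraspanin, was the gene of the list with the highest mean TPM (108 over the 12 libraries), followed by Cd180 (33.9), Fcer2a (26.4), Pax5 (26.0), Cd79b (23.1) and Cd79a (22.8). In CPM, Cd37 was at 118, 111 and 132 CPM in NoTumor-NoCD40, 126, 117 and 83.2 in NoTumor-CD40, 94.4, 129.5 and 64.5 in Tumor-NoCD40 and 164, 184 and 289 in Tumor-CD40; the Tumor-CD40 libraries were above all others, yet with a log2 fold change of 1.14 it was not called (adjusted p = 0.0706, edgeR). Cd72, an inhibitory coreceptor, had a log2 fold change of 1.86 (adjusted p = 0.0640, edgeR). The other genes of the surface protein list, Siglecg, Fcrla and Cd180, had overlapping groups.

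**Figure D2:**
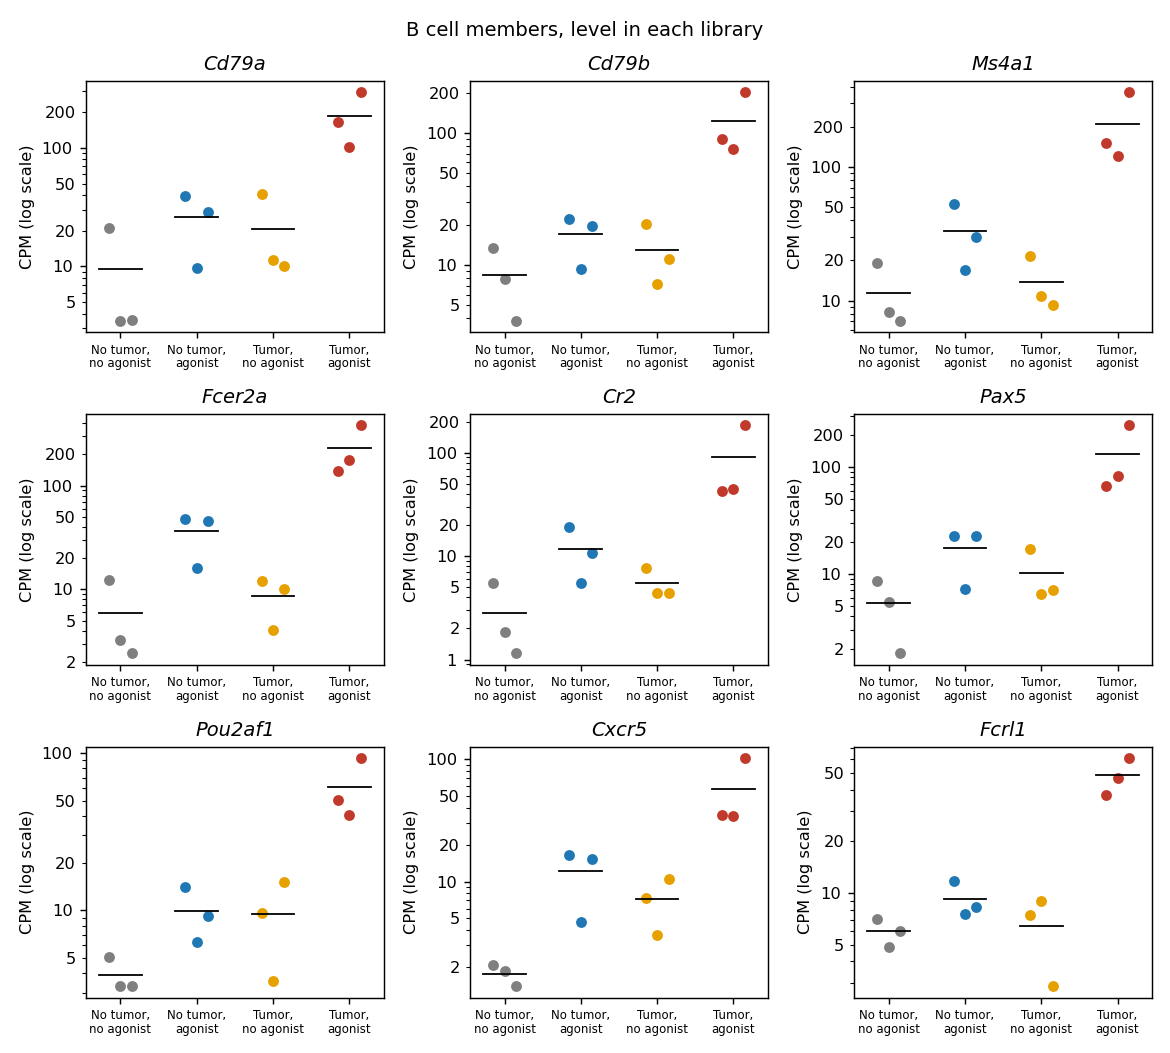
CPM on a log axis in each library (points) of 9 of the genes by group, with the group mean as a line. In all 9 panels the 3 Tumor-CD40 points lie above the other 9 libraries.

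Of the transcription factors and the coactivator, 2 of 6 rose. Pax5, the factor that holds B cell identity, was at 8.65, 5.41 and 1.804 CPM in NoTumor-NoCD40, 22.6, 7.18 and 22.6 in NoTumor-CD40, 17.1, 6.55 and 7.12 in Tumor-NoCD40 and 66.2, 82.6 and 246 in Tumor-CD40. It rose (log2 fold change 3.70, SE 0.60, edgeR adjusted p = 0.0128), by 2.88 on the log2 scale without Tumor-CD40 library 3. Pou2af1, the B cell coactivator OCA-B that binds octamer factors on DNA, was at 5.05, 3.3 and 3.32 CPM in NoTumor-NoCD40, 14.1, 6.32 and 9.199 in NoTumor-CD40, 9.63, 3.58 and 15.2 in Tumor-NoCD40 and 50.6, 40.2 and 93.2 in Tumor-CD40; its groups did not overlap, and it rose (log2 fold change 2.69, SE 0.44, edgeR adjusted p = 0.0127). Ebf1, the early B cell factor, was low, at 9.22, 1.15 and 0.8199 CPM in NoTumor-NoCD40, 6.21, 2.08 and 3.17 in NoTumor-CD40, 4.25, 1.43 and 2.29 in Tumor-NoCD40 and 12.5, 15.7 and 35.6 in Tumor-CD40. Its Tumor-CD40 libraries were the highest of the 12, with a log2 fold change of 3.02 (adjusted p = 0.0685, edgeR) that was not called. Pou2f2, the octamer factor OCT2, and Bach2, a repressor of the plasma cell program, had log2 fold changes of 0.82 and 1.38 and were not called. Zfp318, a factor needed for IgD expression, was near 0 at -0.10, and at 0.11 without Tumor-NoCD40 library 3.

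Since Ebf1 and the octamer proteins Pou2f2 and Pou2af1 belong to the list, the promoters of its genes were read for the letters these factors are known to bind. The core of the sites of PU.1, a factor outside the list, was read as well. RefSeq windows on GRCm38.p6, from 250 bases before to 50 after a start site, were found for 30 of the 35 genes (37 windows). The octamer, ATTTGCAT or ATGCAAAT on the other strand, was in a window of 3 of the 30 genes (Blnk, Ccr6 and Vpreb3), beside 1.97% of 27025 genes. Paired EBF half-sites, CCCNNGGG, which read the same on both strands, were in 3 of the 30 (Bank1, Cd22 and Sdc1), beside 15.4% of genes. The core of PU.1 sites, GAGGAA or TTCCTC, was in 14 of the 30, beside 31.3% of genes. The windows that follow belong to genes that rose, and show where these letters lie; they are printed 5′ to 3′ on the gene's strand with the octamer (Ccr6) or the EBF half-sites (Bank1, Cd22) in capitals, which overlap no other motif searched. They are Ccr6 (chr17:8235793-8236092, plus strand), with the match starting 68 bases before the start site, Bank1 (chr3:136326017-136326316, minus strand), 21 bases before, and Cd22 (chr7:30878979-30879278, minus strand), 48 bases before. The other genes with the octamer or EBF half-sites, Blnk, Vpreb3 and Sdc1, were not called, and a second Ccr6 window (chr17:8242276-8242575) holds neither. Whether these letters go with a rise was not tested. A match describes the letters and does not show that a factor binds.
Ccr6: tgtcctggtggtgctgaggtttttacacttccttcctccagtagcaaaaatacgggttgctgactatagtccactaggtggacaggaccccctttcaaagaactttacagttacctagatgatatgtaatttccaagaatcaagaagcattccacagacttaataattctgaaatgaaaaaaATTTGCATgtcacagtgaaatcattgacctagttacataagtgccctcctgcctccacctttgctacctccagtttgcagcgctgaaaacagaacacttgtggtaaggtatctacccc
Bank1: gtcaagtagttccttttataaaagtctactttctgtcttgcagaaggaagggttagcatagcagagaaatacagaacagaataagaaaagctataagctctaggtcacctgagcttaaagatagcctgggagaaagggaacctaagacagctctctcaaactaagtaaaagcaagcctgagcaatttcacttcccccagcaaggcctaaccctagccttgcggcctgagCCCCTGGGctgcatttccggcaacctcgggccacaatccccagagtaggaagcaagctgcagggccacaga
Cd22: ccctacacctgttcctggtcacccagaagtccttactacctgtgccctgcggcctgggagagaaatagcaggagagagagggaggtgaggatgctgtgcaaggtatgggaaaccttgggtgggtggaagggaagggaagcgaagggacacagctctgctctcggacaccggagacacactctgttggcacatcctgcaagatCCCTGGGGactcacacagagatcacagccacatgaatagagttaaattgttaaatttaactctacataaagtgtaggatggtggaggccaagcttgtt

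Both chemokine receptors rose. Cxcr5, which guides B cells into follicles, was at 2.07, 1.84 and 1.39 CPM in NoTumor-NoCD40, 16.4, 4.63 and 15.3 in NoTumor-CD40, 7.39, 3.69 and 10.5 in Tumor-NoCD40 and 34.8, 34.2 and 102 in Tumor-CD40. Cxcr5 rose (log2 fold change 2.99, SE 0.51, edgeR adjusted p = 0.0172), but without Tumor-CD40 library 3 the log2 fold change was 2.27 with an adjusted p of 0.0674 (edgeR). Ccr6, a receptor for CCL20 on B cells and others, was at 6.505, 6.83 and 5.41 CPM in NoTumor-NoCD40, 6.37, 4.91 and 6.42 in NoTumor-CD40, 6.32, 3.16 and 8.36 in Tumor-NoCD40 and 18.8, 21.96 and 47.8 in Tumor-CD40. The first 3 groups of Ccr6 were alike in range and all 3 Tumor-CD40 libraries lay above them (log2 fold change 2.31, SE 0.39, edgeR adjusted p = 0.0143). Of the receptors for the survival factors BAFF and APRIL, Tnfrsf13c (the BAFF receptor) was at 5.36, 5.41 and 3.198 CPM in NoTumor-NoCD40, 15.5, 4.67 and 9.24 in NoTumor-CD40, 9.34, 3.39 and 3.34 in Tumor-NoCD40 and 35.6, 24.5 and 70.8 in Tumor-CD40. It rose (log2 fold change 3.05, SE 0.50, edgeR adjusted p = 0.0137). Over the 15 settings compared its log2 fold change ran from 2.51 to 3.70, the latter without Tumor-NoCD40 library 1, and it passed in 10. Tnfrsf13b (TACI) had a log2 fold change of 0.64 (adjusted p = 0.538, edgeR) with overlapping groups. Tnfrsf17 had 11 counts in all, 10 of them in Tumor-CD40 library 3 and 1 in NoTumor-CD40 library 3.

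Ralgps2, a Ral guanine nucleotide exchange factor, was at 5.05, 5.601 and 7.79 CPM in NoTumor-NoCD40, 3.95, 3.85 and 5.63 in NoTumor-CD40, 8.8, 7.68 and 3.23 in Tumor-NoCD40 and 18.3, 17.4 and 37.7 in Tumor-CD40. It rose (log2 fold change 1.91, SE 0.38, edgeR adjusted p = 0.0374), and its first 3 groups overlapped. Vpreb3, which binds immunoglobulin heavy chains in developing B cells, was at or near 0 in most libraries, between 0 and 2.10 CPM, with too few counts to compare. It passed the filter for testing narrowly, with a level above the filter's 0.391 CPM in 1 library of NoTumor-NoCD40, 1 of Tumor-NoCD40 and 2 of Tumor-CD40. The other 33 tested genes were above it in at least 2 libraries of every group.

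**Figure D3:**
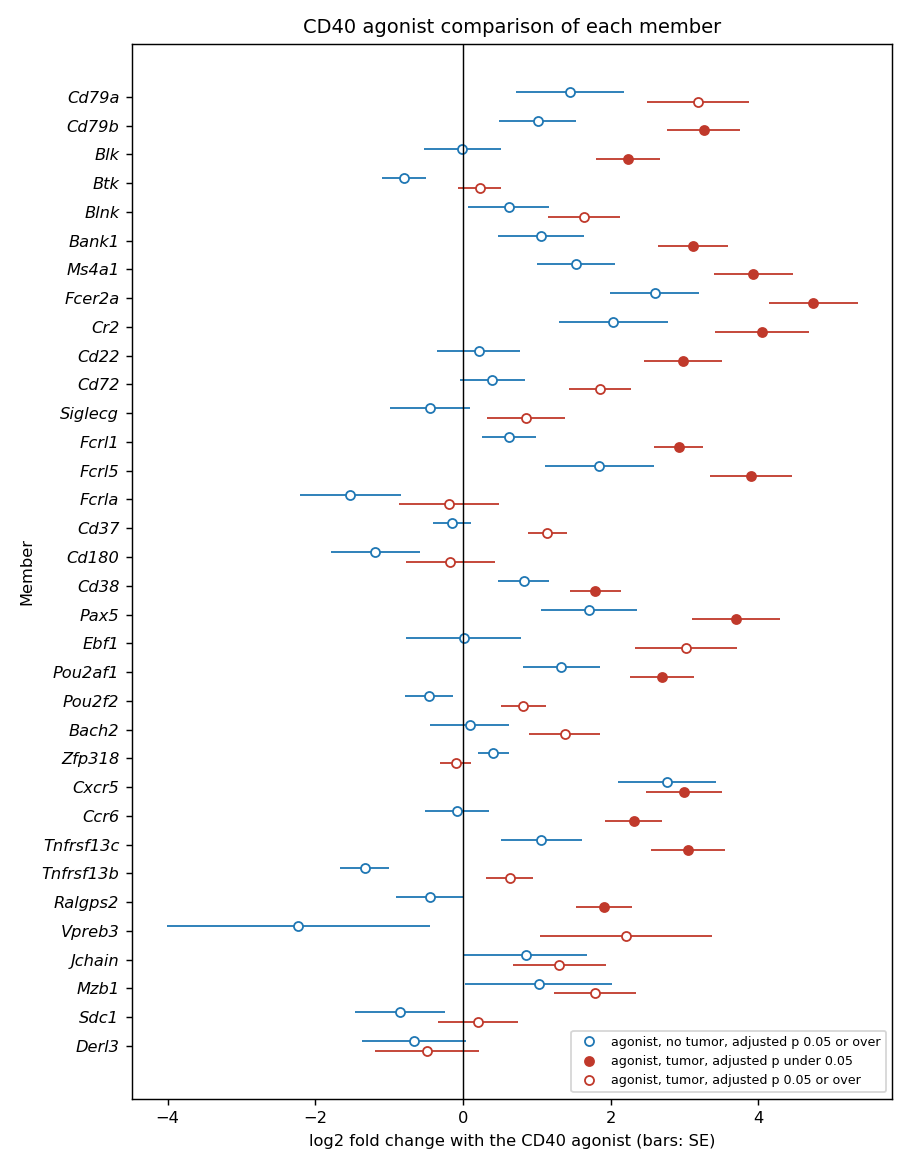
log2 fold change with the CD40 agonist for the 34 genes tested, in mice without tumor (blue) and with tumor (red); bars are the standard error and filled points have an adjusted p under 0.05. The 16 filled points are all red and lie between 1.79 and 4.74.

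None of the 4 plasma cell genes was called for the agonist with tumor in edgeR's test. Mzb1, a chaperone of antibody-secreting and marginal zone B cells, was at 1.15, 0.882 and 1.39 CPM in NoTumor-NoCD40, 5.84, 0.5104 and 0.714 in NoTumor-CD40, 7.35, 2.56 and 15.2 in Tumor-NoCD40 and 39.2, 17.6 and 30.6 in Tumor-CD40. Jchain, which joins secreted IgM and IgA units, was at 4.55, 2.23 and 6.89 CPM in NoTumor-NoCD40, 15.6, 6.44 and 2.58 in NoTumor-CD40, 25.1, 10.6 and 61.8 in Tumor-NoCD40 and 149, 33.4 and 59.1 in Tumor-CD40. All 3 Tumor-CD40 libraries of Mzb1 were above the other 9. Both had their lower group means without tumor and their highest in Tumor-CD40, and for Jchain Tumor-NoCD40 library 3 was at the level of Tumor-CD40 library 3. With the agonist in mice with tumor, the log2 fold changes were 1.79 for Mzb1 (adjusted p = 0.229, edgeR) and 1.31 for Jchain (adjusted p = 0.521, edgeR), neither called. Sdc1, the plasma cell surface proteoglycan CD138, stayed between 1.31 and 7.40 CPM over the 12 libraries, and Derl3, of the endoplasmic reticulum, between 0.0396 and 5.20, with overlapping groups for both.

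The tumor comparison in mice given the agonist (Tumor-CD40 against NoTumor-CD40) uses the same Tumor-CD40 libraries as the comparison above, so the 2 are not independent. Here 9 of 34 genes rose and 0 fell, beside 0.193% of all genes tested called higher and 0.00553% lower, with a median log2 fold change of 2.34 beside -0.01 over all genes. The largest rise was in Mzb1 (log2 fold change 3.65, SE 0.66, edgeR adjusted p = 0.0477). Over the 15 settings compared its log2 fold change ran from 3.18 to 5.56, the latter without NoTumor-CD40 library 1, and it passed in 7. The other 8 were Cd22 (log2 fold change 2.94), Bank1 (2.92), Cd79b (2.85), Pou2af1 (2.64), Ralgps2 (2.45), Blk (2.43), Fcrl1 (2.40) and Ccr6 (2.33). Jchain had a log2 fold change of 3.30 without overlap and was not called (adjusted p = 0.0984, edgeR). Groups did not overlap for 26 genes, all higher with tumor, beside 6.68% of all genes tested that were higher and 6.2% that were lower. This count of 9 was the less stable. It was 0 without NoTumor-CD40 library 2, NoTumor-CD40 library 3 or Tumor-CD40 library 3, 2 without NoTumor-CD40 library 1, and 17 without Tumor-CD40 library 2. Calls over all genes tested moved as well. They were 0% without NoTumor-CD40 library 2 or library 3, and 0.0304% without Tumor-CD40 library 3. They were 0.0357% without NoTumor-CD40 library 1, 0.359% without Tumor-CD40 library 2, and 0.199% with every library. Without Tumor-CD40 library 3 the log2 fold changes of Bank1 and Cd22 were 2.16 and 1.98.

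Without a tumor, the agonist gave no call among these genes. In NoTumor-CD40 against NoTumor-NoCD40, 0 of 34 passed the threshold of edgeR's test, beside 1.44% of all genes tested, while 11 had an unadjusted p under 0.05, beside 18.4% of all genes tested. DESeq2 called 5, beside 5.82% of the genes it tested, and limma on log2(TPM + 1) called 0, beside 0.171%. The gene nearest to a call was Fcer2a, with levels of 12.2, 3.22 and 2.42 CPM without and 47.7, 15.9 and 45.2 CPM with the agonist, which did not overlap (log2 fold change 2.60, adjusted p = 0.0513, edgeR). Cxcr5 followed, at 2.07, 1.84 and 1.39 CPM against 16.4, 4.63 and 15.3 (log2 fold change 2.77, adjusted p = 0.0583, edgeR). Fcer2a and Cxcr5 both passed without NoTumor-CD40 library 2, and Fcer2a alone without NoTumor-NoCD40 library 1. In those settings 4.82% and 0.651% of all genes tested were called. In all, 8 genes were higher and 5 lower without overlap, beside 11.2% and 12% of all genes tested. In the same comparison all 10 mature dendritic cell markers had a positive log2 fold change (median 1.08, Ccl17 and Ccr7 called), with sums of 14340, 8174 and 5623 CPM without and 22870, 13710 and 30510 CPM with the agonist. Of the 10 cDC1 markers 1 was positive and 0 were called (median -0.84), with sums of 6996, 9694 and 9499 CPM without and 4637, 7873 and 2948 CPM with the agonist. The part of these shifts in the levels of the 35 genes was not tested.

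The 5 genes lower without overlap were Tnfrsf13b, Fcrla, Cd180, Btk and Pou2f2, none of them called. Of all genes tested 12% were lower without overlap, so 5 of 34 is close to the share over all genes. Tnfrsf13b was at 18.5, 26.0 and 25.01 CPM without and 11.1, 10.6 and 5.99 with the agonist (log2 fold change -1.33, adjusted p = 0.0678, edgeR). Cd180, a homolog of Toll-like receptors also known from dendritic cells, was at 132, 201 and 175 CPM in NoTumor-NoCD40, 80.1, 123 and 19.9 in NoTumor-CD40, 73.9, 174 and 21.9 in Tumor-NoCD40 and 74.8, 62.4 and 102 in Tumor-CD40. Its 2 lowest libraries, NoTumor-CD40 library 3 and Tumor-NoCD40 library 3, were also the lowest for the cDC1 marker Xcr1 (49.5 and 73.1 CPM, against 199 to 779.8 in the other 10). Fcrla, an Fc receptor-like protein kept inside the cell, was lowest in the same libraries, at 3.21 and 6.10 CPM, against 9.70 to 50.7 in the other 10. Btk was likewise lowest there, at 33.7 and 40.9 CPM, against 52.3 to 98.1. These 2 libraries had the 2 highest sums of the 10 mature dendritic cell markers (30510 and 23320 CPM). They also share a date-like title prefix with Tumor-CD40 library 3, and what this prefix marks is not given. The part of the markers and of the prefix in the levels of Cd180, Fcrla and Btk was not tested. Cd180, Btk, Fcrla and Derl3 were the only genes of the list with their highest group mean in NoTumor-NoCD40, and were set apart after their values were seen.

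**Figure D4:**
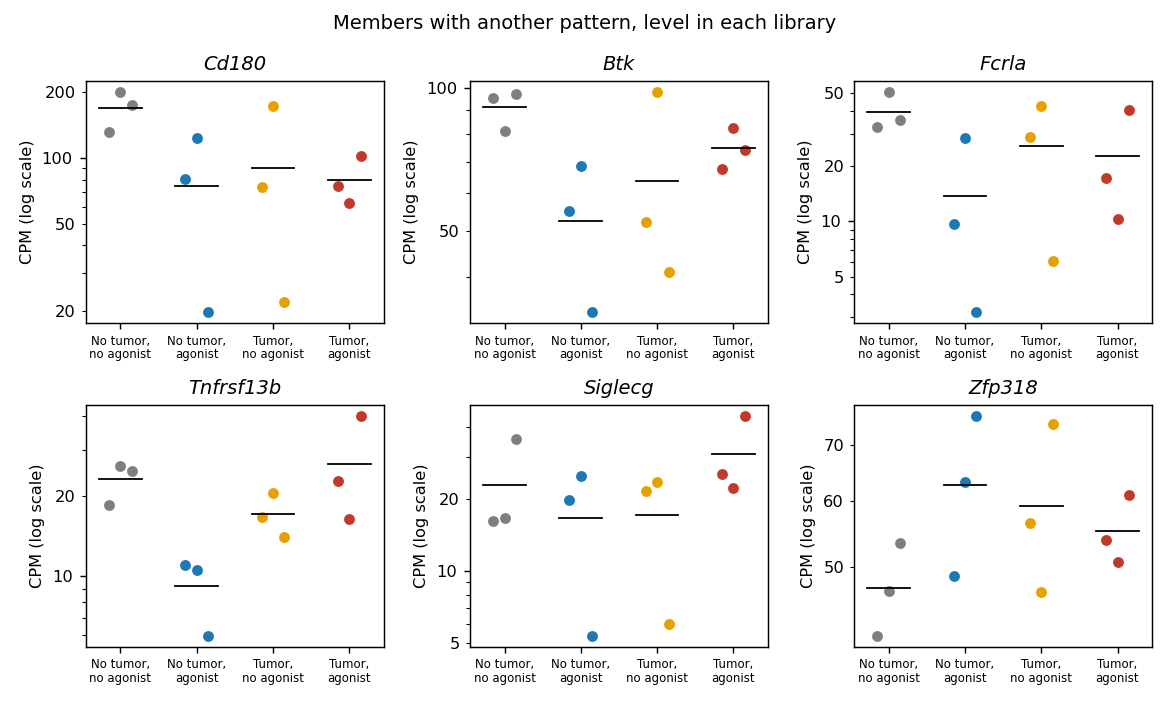
CPM on a log axis in each library (points) of 6 other genes of the list, by group, with the group mean as a line; the 6 were chosen after their values were seen. Cd180, Btk and Fcrla are lowest in library 3 of NoTumor-CD40 and of Tumor-NoCD40, and Tumor-CD40 overlaps other groups in every panel.

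Tumor alone (Tumor-NoCD40 against NoTumor-NoCD40) gave 0 calls among the 34 genes with edgeR, beside 0% of all genes tested. In edgeR's test 4 had an unadjusted p under 0.05, beside 5.82% of all genes tested. DESeq2 called 1, beside 0.164% of the genes it tested, and limma on log2(TPM + 1) called 0, beside 0%. Groups did not overlap for 4 genes, Bank1, Cxcr5, Mzb1 and Jchain, all higher with tumor, beside 4.06% of all genes tested that were higher and 4.92% that were lower. The log2 fold changes were 2.88 (SE 0.82) for Mzb1 and 2.85 (SE 0.76) for Jchain, both with an adjusted p of 0.775 (edgeR). The median over the list was 0.18, beside -0.01 over all genes. Here too all 10 mature dendritic cell markers were positive (median 0.70, 0 called), and so were all 10 T cell markers (median 1.03, 0 called). The mature dendritic cell list went the other way elsewhere. For the agonist with tumor 1 of its 10 markers was positive (median -0.15). For the tumor with agonist (median -0.58) and the interaction (median -1.27) 0 were.

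The interaction term asks whether the agonist's effect differed between mice with and without tumor. No gene of the list passed (0 of 34, beside 0% of all genes tested, lowest adjusted p 0.495, edgeR), so the difference between 16 calls with tumor and 0 without was not shown for any single gene. At an unadjusted p under 0.05 there were 18, beside 9.80% of all genes tested. DESeq2 called 2, beside 0.124% of the genes it tested, and limma on log2(TPM + 1) called 0, beside 0.0111%. The term was positive, a larger change with tumor, for 33 of 34 genes, beside 52.0% of all genes, with Zfp318 the exception. Its estimates were 2.30 (SE 0.50) for Fcrl1, 2.76 (SE 0.76) for Cd22, 2.40 (SE 0.58) for Ccr6 and 1.97 (SE 0.46) for Tnfrsf13b, and 0.23 (SE 0.90) for Cxcr5. The estimate for Cxcr5 was negative with limma on TPM and without NoTumor-CD40 library 2, Tumor-NoCD40 library 2 or Tumor-CD40 library 3. In data simulated from these libraries, this term recovered 25% of genes changed 4-fold, against 55.7% for the agonist comparison with tumor, so most differences of this size are not detectable with 3 libraries per group.

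Titles of the libraries carry a date-like prefix, and within 3 of the prefixes there is 1 library of each group compared. Over the list, 23 of 35 genes were higher in Tumor-CD40 than in Tumor-NoCD40 within each of the 3 prefixes, beside 14.6% of all genes tested, and 29 of 35 were higher than in NoTumor-CD40 within each, beside 14.3%. Groups did not overlap, with Tumor-CD40 higher, for 22 genes in the first of these comparisons and 26 in the second. The direction of those genes within a prefix was therefore fixed, so these counts add little to the counts of overlap. All called genes are among them. Log2 ratios of the called genes within a prefix ran from 0.89 to 5.42 for the 16 and from 1.55 to 5.24 for the 9. Libraries of the same number share a prefix, except that NoTumor-NoCD40 library 3 shares its prefix with no other library. What the prefix marks is not given.

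Other B cell genes were read from lists that hold none of the 35. Of 25 further B cell genes, 5 rose with the agonist in mice with tumor and 0 fell, with a list median of 0.54. Of all genes tested, 0.641% were called higher and 0.0442% lower in that comparison. The 5 included Ly6d (log2 fold change 3.90, edgeR adjusted p = 0.0186), Fcmr, the IgM Fc receptor (3.12, 0.0403) and Mef2c (1.91, 0.0474). In mice without tumor 1 of the 25 rose, Spib (2.56, edgeR adjusted p = 0.0111), a factor that plasmacytoid and other dendritic cells also use. Without tumor, 1.44% of all genes tested were called.

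Of 26 genes of B cell receptor signaling, which most white blood cells share, 3 rose with the agonist in mice with tumor: Dok3 (log2 fold change 3.67, edgeR adjusted p = 0.0140), Syk (1.41, 0.0192) and Rac2 (1.14, 0.0403). Without tumor 2 rose, Pik3r1 (1.35, edgeR adjusted p = 0.0112) and Cd81 (0.93, 0.0454), and Rac2 rose for the tumor with agonist. Of all genes tested, 0.641% were called higher for the agonist with tumor and 0.193% for the tumor with agonist. For the agonist without tumor, 1.44% were called. Of 25 plasma cell secretory genes and factors, among them Prdm1 and Xbp1, 0 were called in mice with tumor and 1 without, Edem1 (0.76, edgeR adjusted p = 0.0387). Of 14 germinal center genes tested, among them Bcl6, 0 were called in any comparison. Medians for the agonist in mice with tumor were 0.25, -0.10 and 0.13 for these 3 lists.

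Markers of other cells were summed in the same libraries. For comparison, 0.641% of all genes tested were called higher for the agonist with tumor and 0.193% for the tumor with agonist. The 12 immunoglobulin constant region genes summed to 529.6, 368 and 668 CPM in Tumor-NoCD40 and 2418, 1080 and 2413 in Tumor-CD40. All 12 had a positive log2 fold change with the agonist in mice with tumor, and 2 (Ighg2b and Ighd) were called. The macrophage list summed to 30.6, 13.85 and 12.02 CPM in Tumor-NoCD40 and 40.6, 43.4 and 65.8 in Tumor-CD40. All 9 macrophage markers tested were positive in that comparison and 1, Siglec1, was called; Marco and C1qb were called for the tumor with agonist, and Vsig4 had no count. Of the follicular dendritic cell list, Fdcsp had no count, Madcam1 averaged at most 0.301 CPM in a group, and 0 of 8 tested were called; its sum, mostly Mfge8 and Clu, was 324.5 to 739.7 CPM in Tumor-CD40. The T cell list summed to 132 to 678 CPM in Tumor-NoCD40 and 154 to 377 in Tumor-CD40, with 0 of 10 called. Among the remaining lists, Ly6c2 and Chil3 of 9 monocyte markers and Kdr of 8 endothelial markers were called for the agonist with tumor, and 0 markers each of cDC1, mature dendritic cells, cDC2, plasmacytoid dendritic cells and NK cells. The part of these cells in the levels of the 35 genes was not tested.

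**Figure D5:**
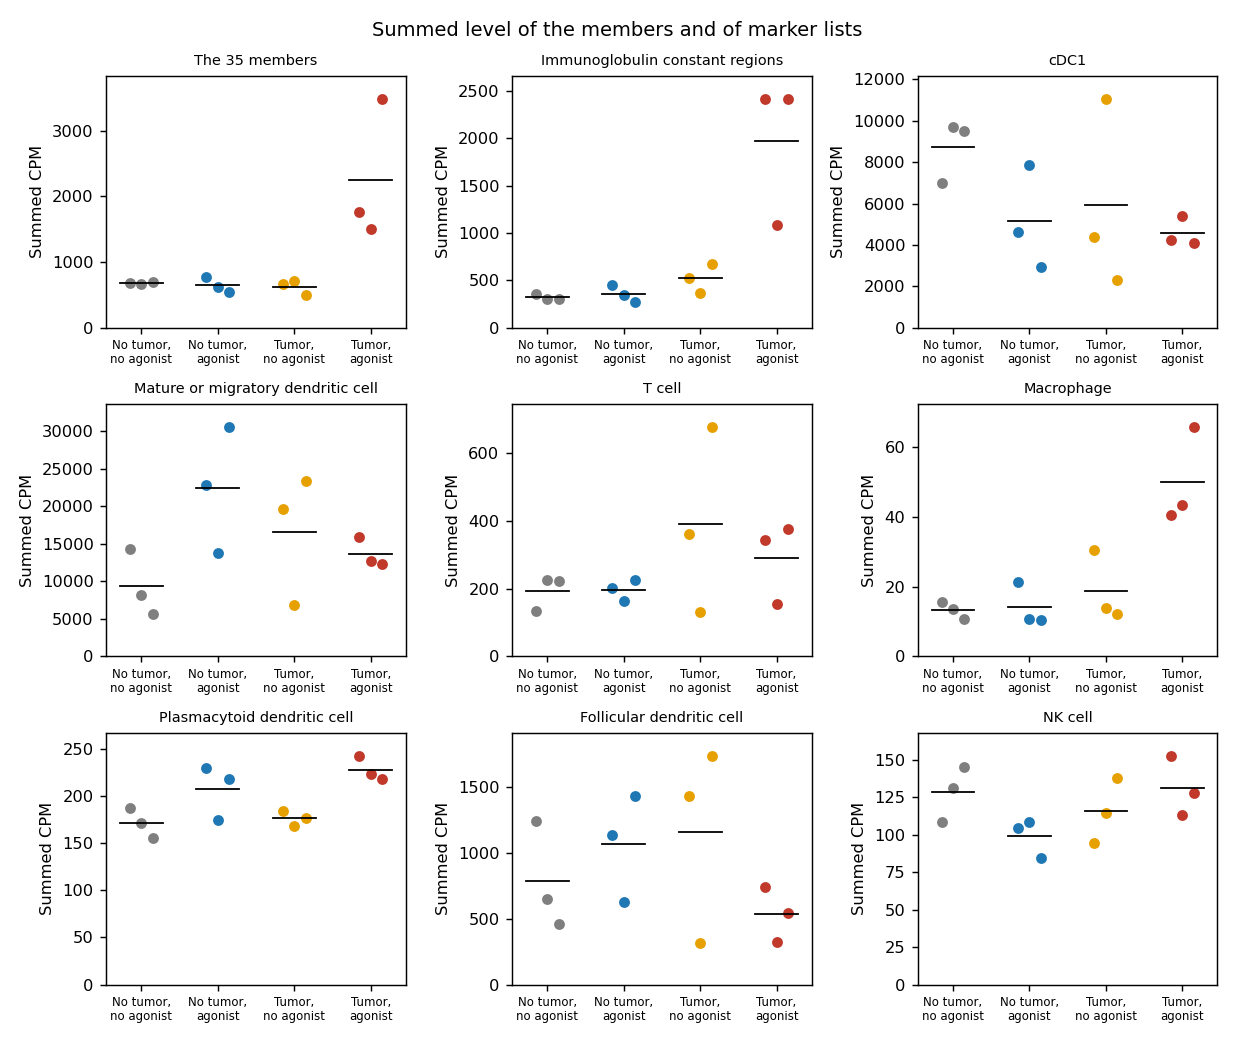
Summed CPM in each library (points) of the 35 genes and of 8 marker lists by group, with the group mean as a line; each axis starts at 0. The 35 genes, the immunoglobulin constant regions and the macrophage list have all 3 Tumor-CD40 libraries above the other 9.

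Some levels depend on how reads were shared between transcripts. By TPM, Cd79a, Cd79b and Ms4a1 rested on a single protein-coding transcript for at least 98.3% of their level over the 12 libraries. For Pax5, 65.7% came from the processed transcript Pax5-219, so its level per length is uncertain. That transcript was at 55.5% in NoTumor-NoCD40, 40.1% in NoTumor-CD40, 0% in Tumor-NoCD40 and 73.7% in Tumor-CD40. In Tumor-CD40 library 1 it was at 0%. Cr2-206 gave 43.3% of the TPM of Cr2, all of it in libraries 2 and 3 of Tumor-CD40. For Cxcr5, the transcript Cxcr5-201 made up 91.1% of TPM summed over Tumor-CD40 and 31.7% to 48.2% in the other groups. Single libraries overlapped, with 86.7% to 100% in Tumor-CD40. It was at 100% in NoTumor-NoCD40 library 2 and NoTumor-CD40 library 3, and at 87.3% in Tumor-NoCD40 library 1. With limma on log2(TPM + 1), 5 genes of the list were called for the agonist with tumor, beside 0.160% of all genes tested. Pax5, Cr2 and Cxcr5 were not called (limma adjusted p = 0.171, 0.117 and 0.657). Genes on the opposite strand overlap Cd37 (Tead2), Cd72 (Tesk1), Cd180 (Mast4) and Cxcr5 (Bcl9l); the library kit keeps strand, but whether quantification used it is not given in the sources used here.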

How the data were processed

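Per the labels' protocols, RNA came from the RNeasy Plus Micro kit, and the strand-keeping NEBNext Ultra II Directional kit gave the libraries. Transcripts were quantified with Salmon on mm10, per the submitters' processing notes; the version and the annotation release are not given in the sources used here. The authors deposited expected counts (unnormalized estimates) and TPM for 136288 transcripts in 12 libraries. Both were summed to genes with GENCODE M21, which matched 136176 transcripts; the other 112 held at most 0.0457% of a library's counts. Counts were rounded and tested with edgeR 4.0.16 in R 4.3.3: TMM factors, filterByExpr (minimum count 10, minimum total 15), 4 group means over 12 libraries, quasi-likelihood F tests with legacy = FALSE, two-sided, and Benjamini-Hochberg adjustment over 18095 genes. The common biological coefficient of variation was 58.7%. A standard error (SE) is the absolute log2 fold change divided by the square root of F. Alternatives used DESeq2 1.42.0 and limma 3.58.1 (log2(TPM + 1), log2(TPM + 0.1)), other scaling and filtering, a block, and each library left out.

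The 35 genes, the other lists and the tests were chosen with earlier results of these data known. Any of the 35 could be named, with values in every library for those past the threshold and for the 6 with the highest mean TPM, and also for Ebf1 and Jchain, chosen after their values were seen; from the 4 lists of other B and plasma cell genes up to 4 called genes per comparison were named, apart from results that are not reported here. On simulated data with 200 changed genes, the test for the agonist with tumor recovered 10.2% of the 2-fold and 55.7% of the 4-fold changes, and 6.35% of its calls were false. For the tumor with agonist these values were 10.2%, 51.1% and 6.78%.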

Additional observations from a re-analysis of the deposited data

How the results depend on the processing

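Among the log2 fold changes printed for the 35 genes, those near 0 changed sign. For the agonist with tumor and each library left out in turn, Btk ran from -0.0062 to 0.68 and Zfp318 from -0.25 to 0.11. For the interaction, Cxcr5 was at -0.42 with limma on log2(TPM + 1), with or without the filter, at -1.02 on log2(TPM + 0.1), and ran from -0.505 to 0.62 with each library left out. No other log2 fold change printed for the 35 genes changed sign under these settings; genes outside the 35 were not run. The counts for the 5 comparisons (agonist without tumor, agonist with tumor, tumor without agonist, tumor with agonist, interaction) were 0, 16, 0, 9 and 0. Of all genes tested, 1.44%, 0.685%, 0%, 0.199% and 0% were called. DESeq2 gave 5, 20, 1, 21 and 2 genes, beside 5.82%, 1.91%, 0.164%, 1.13% and 0.124% of all genes it tested. Without the filter on low counts edgeR gave 3, 20, 0, 21 and 0, beside 1.29%, 0.645%, 0.00322%, 0.287% and 0%. With DESeq2's size factors it gave 1, 16, 0, 9 and 0, beside 1.62%, 0.691%, 0%, 0.199% and 0%. With legacy = TRUE it gave 1, 13, 0, 0 and 0, beside 1.09%, 0.337%, 0%, 0% and 0%. On log2(TPM + 1) limma gave 0, 5, 0, 1 and 0, beside 0.171%, 0.160%, 0%, 0.0663% and 0.0111% of all genes tested. On log2(TPM + 0.1) it gave 0, 4, 0, 1 and 0, beside 0.160%, 0.116%, 0%, 0.0332% and 0%. On log2(TPM + 1) without a filter it gave 0, 2, 0, 1 and 0, beside 0.0741%, 0.0516%, 0.0258%, 0.0226% and 0.0226%. With each library left out in turn, the counts ran from 0 to 2, from 8 to 16, 0 throughout, from 0 to 17, and 0 throughout. The shares of all genes called then ran from 0.111% to 4.82% and from 0.132% to 1.15% for the 2 agonist comparisons. They ran from 0% to 0.0102% and from 0% to 0.359% for the 2 tumor comparisons, and were 0% for the interaction. The cause of these shifts was not tested.

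The labels give no replicate numbers, and the title prefix served as the replicate block: 0, 20, 0, 19 and 0 genes were called, with all 16 and all 9 among them. Of all genes tested, 0.265%, 1.27%, 0%, 0.459% and 0% were called with this block. Deviations of same-prefix libraries from their group means correlated over genes at 0.055 to 0.107 for the agonist with tumor (6 of 6 libraries best with their own prefix) and 0.0036 to 0.0432 for the tumor with agonist (5 of 6). Between NoTumor-CD40 and Tumor-NoCD40, which are not compared, they correlated at 0.0709, 0.228 and 0.171. The main test used no block, as the labels state no covariate. Not every pair was over 0.1, an arbitrary limit, and the prefix was not taken as a pairing. All same-prefix correlations given here were positive, so they do not settle whether such libraries are paired.

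With 3 libraries per group, genes changed 2-fold were mostly missed in simulation, and the absence of a call does not show that a gene's levels were alike.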
